A study of Homo sapiens with 2 samples.

Results

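The small nucleolar RNA (snoRNA) genes and the small Cajal body RNA (scaRNA) genes were taken as every gene whose symbol began with SNORD, SNORA or SCARNA on the arrays of this series. Only probe sets annotated to exactly 1 gene were used, and where a gene had several their mean was taken. The rule gave 192 of the 18377 genes measured: 115 genes of the C/D box class (SNORD), 61 of the H/ACA box class (SNORA) and 16 of the Cajal body class (SCARNA). The rule uses gene symbols and no measured value. For 5 of the members more than 1 probe set was averaged.

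EBC1-R is a subline of EBC1 that was exposed to PHA-665752, an inhibitor of the MET kinase, at doses raised step by step, and was then kept in 3 µM of it. It was set against EBC1, the parental line, a human lung squamous cell carcinoma line in which the MET gene, encoding the receptor for hepatocyte growth factor, is amplified. Each line was measured on 1 array, so every value is a single measurement without a replicate error, and differences are given as sizes with no test. EBC1-R cells were kept in inhibitor, so resistance and exposure to the drug cannot be told apart. Whether EBC1-R is 1 clone or a mixed population is not stated in the labels.

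snoRNAs are short, stable RNAs of the nucleolus that pair with other RNAs and guide enzymes to them. C/D box snoRNAs guide 2'-O-methylation through the methyltransferase fibrillarin, H/ACA box snoRNAs guide pseudouridylation through dyskerin, and scaRNAs do the same for spliceosomal RNAs in Cajal bodies. Most guide ribosomal RNA, and a few, such as U3 and U14, are needed to cut its precursor. In humans nearly all are excised from introns of other genes, many of which encode ribosomal proteins or long non-coding RNAs, so that a snoRNA and the gene around it are usually transcribed together.

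Values are deposited intensities on a log2 scale, and every difference is the EBC1-R value minus the EBC1 value. An intensity depends on the probes, so differences are taken between the arrays within a gene. An order of intensities over genes is not an order of RNA amounts. Pearson's r between the arrays was 0.98 over all genes and 0.99 over the 192 members, both across genes, which are not independent replicates. The central 95% of all genes differed by between -0.65 and 0.75. Probe sets of the same gene differed from each other with a pooled SD of 0.15 in this difference, which describes agreement within the pair of arrays and not between cultures. The epithelial genes EPCAM (11.25 in EBC1-R and 11.33 in EBC1) and CDH1 (12.06 in EBC1-R and 11.96 in EBC1) were bright on both arrays. The keratins KRT8, KRT18 and KRT19 were bright too and lower in EBC1-R by 0.78 to 0.89. The squamous markers KRT5, SOX2 and DSG3 lay below the median level of all genes on both arrays, and KRT6A and TP63 were not measured by a probe set of 1 gene. Leukocyte, fibroblast and endothelial markers had median differences of -0.05, -0.03 and 0.03, over 4, 5 and 4 measured genes.

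The snoRNA genes had, as a group, slightly higher values in EBC1-R, and none differed by as much as 2-fold. Of the 192 members, 126 were higher in EBC1-R, 63 were lower and 3 had identical values, while 43.3% of all genes were higher by any amount. The median difference was 0.09 over the members and -0.03 over all genes. No member reached 2-fold in either direction, a size passed by 2.14% of all genes, 1.26% higher and 0.887% lower. At 1.5-fold the count was 12 members, or 6.25%, against 7.57% of all genes, so members that far apart were about as frequent as among genes at large. The 8 members higher by 1.5-fold were all C/D box genes, against 4.41% of all genes higher by that much. With differences centred on the median of all genes there were 11, of which 1 was an H/ACA box gene. The 4 members lower by 1.5-fold were 3 H/ACA box genes and 1 C/D box gene, against 3.16% of all genes, and 1 of the 4, an H/ACA box gene, had a mean level above the median of all genes.

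The Cajal body class had the lowest median difference, and the order of the C/D box and H/ACA box classes turned with the genes included. Median differences were 0.08 for the C/D box genes, 0.13 for the H/ACA box genes and -0.02 for the Cajal body genes. In the C/D box class 77 of 115 genes were higher in EBC1-R, in the H/ACA box class 42 of 61, and in the Cajal body class 7 of 16, with 8 lower and 1 identical. The H/ACA box median exceeded the C/D box median by 0.04, and the Cajal body median lay 0.11 below the C/D box median and 0.15 below the H/ACA box median. The C/D box median was above the H/ACA box median without the imprinted repeats (0.25 against 0.13), among genes with a mean level of at least that of the median gene (0.27 against 0.22) and with related copies averaged (0.24 against 0.16). All 3 classes overlapped over most of their range. The classes also differ in length, with RefSeq medians of 81 bases for the C/D box, 134 for the H/ACA box and 226.5 for the Cajal body genes. The part of RNA length in the class medians was not tested.

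**Figure D1:**
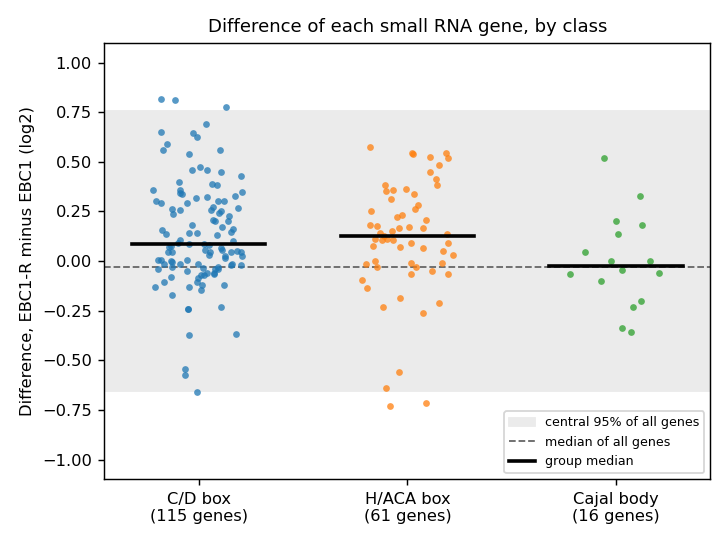
Difference between EBC1-R and EBC1 (log2, vertical axis) of each C/D box, H/ACA box and Cajal body RNA gene (points, spread sideways for legibility), with the class median (bar), the median of all genes (dashed line) and the central 95% of all genes (grey band). Most C/D box and H/ACA box genes sit above 0, the Cajal body genes are centred near 0, and no point reaches 1.

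The C/D box class holds many repeated copies with nearly equal values on both arrays. Of its 115 genes, 46 belong to the imprinted repeats of chromosomes 15 and 14 described below, whose median difference was 0.02. The other 69 had a median of 0.25, with 51 higher and 18 lower in EBC1-R. Without the 7 genes of the GAS5 locus as well, the remaining 62 had a median of 0.20, with 44 higher. Of the 192 members, 90 had a mean over both arrays of at least 7.28, the median level of all genes. Among the 50 C/D box genes at that level, 42 were higher in EBC1-R, as were 24 of 31 H/ACA box genes and 4 of 9 Cajal body genes, while 49.1% of all genes at that level were higher.

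The members were also grouped by the gene that contains them, a grouping made after the differences were seen. GAS5, the locus of most of the largest increases, was set apart as a group of its own, and the groups outnumber the box classes. The spread of the group medians was thus partly set by this choice and cannot be compared with that of the classes. The RefSeq gene table places 190 of the 192 members inside another gene, without regard to strand. Where several genes contain a member, GAS5, a ribosomal protein gene or an SNHG (snoRNA host) gene was taken first. The 7 members inside GAS5 had a median difference of 0.65. The 33 members inside ribosomal protein genes had a median of 0.27, with 28 higher, 4 lower and 1 identical. The 23 members in other non-coding genes had a median of 0.21, with 17 higher and 6 lower. The 81 members in other protein-coding genes had a median of 0.07, with 46 higher, 34 lower and 1 identical. Both main classes showed this order between ribosomal protein genes and other protein-coding genes, with medians of 0.26 and 0.17 for the C/D box genes and 0.33 and 0.07 for the H/ACA box genes. The place of the other non-coding genes differed by class, with medians of 0.07 over 13 C/D box genes and 0.29 over 8 H/ACA box genes. No Cajal body gene lies in a ribosomal protein gene, and 14 of the 16 lie in other protein-coding genes.

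**Figure D2:**
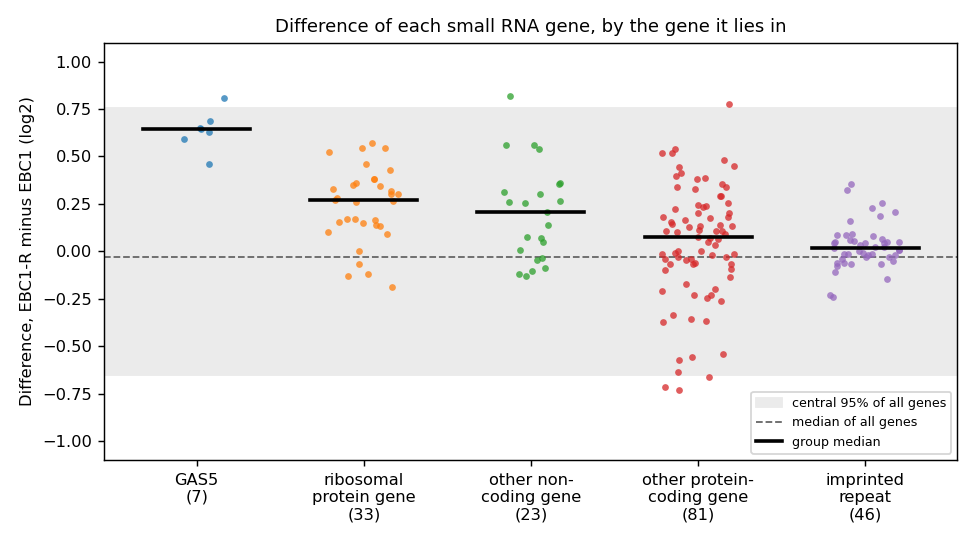
Difference between EBC1-R and EBC1 (log2, vertical axis) of each member (points), split by the kind of gene that contains it, with group medians (bars), the median of all genes (dashed line) and the central 95% of all genes (grey band). All 7 members in GAS5 lie between 0.46 and 0.81, and the members in other protein-coding genes spread from -0.73 to 0.78.

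GAS5 is a non-coding gene whose spliced RNA has been tied to growth arrest and whose introns hold a run of C/D box snoRNAs that guide ribosomal RNA methylation. All 7 of its members on the arrays were higher in EBC1-R, 6 of them by at least 1.5-fold, and they supplied 6 of the 8 members higher by that much. Without them the count was 2 of 185. SNORD75 had 8.82 in EBC1-R and 8.01 in EBC1, SNORD79 had 8.48 in EBC1-R and 7.79 in EBC1, and SNORD74 had 10.96 in EBC1-R and 10.31 in EBC1. SNORD78, studied as a snoRNA raised in lung cancer, had 9.34 in EBC1-R and 8.70 in EBC1. SNORD44 and SNORD81 were higher by 0.63 and 0.59. SNORD77, at 5.67 in EBC1-R and 5.21 in EBC1, was higher by 0.46. GAS5 had no probe set of its own in the gene table. Probe sets that name GAS5 together with SNORD47, SNORD76 or SNORD80, which are not members because they name several genes, differed by 0.76, 0.68 and 0.86. Probes for a short intronic RNA can also bind the unspliced transcript around it. Signal from the snoRNA and from that transcript cannot be told apart here.

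The largest increase of any member was that of SNORD60, a C/D box snoRNA in the non-coding gene SNHG19, with 8.20 in EBC1-R and 7.39 in EBC1, a difference of 0.82 or 1.76-fold. SNORD14E, a copy of U14 in HSPA8 (the constitutive HSC70 chaperone), had 8.17 in EBC1-R and 7.39 in EBC1, or 1.71-fold higher. SNORD14C in the same gene had 10.61 in EBC1-R and 10.16 in EBC1, while HSPA8 itself had 13.05 in EBC1-R and 12.97 in EBC1. Just short of 1.5-fold were SNORA65 in RPL12 at 8.37 in EBC1-R and 7.80 in EBC1, with RPL12 higher by 0.37, and SNORD104 in SNHG25 at 10.22 in EBC1-R and 9.66 in EBC1. SNORD81, at 0.59, was the last member past that size. Increases of this size lay within or just beyond the central 95% of all genes. They exceeded the spread between probe sets of a gene, but most of these members were picked for their size. That comparison was thus set in advance and lends them no weight.

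**Figure D3:**
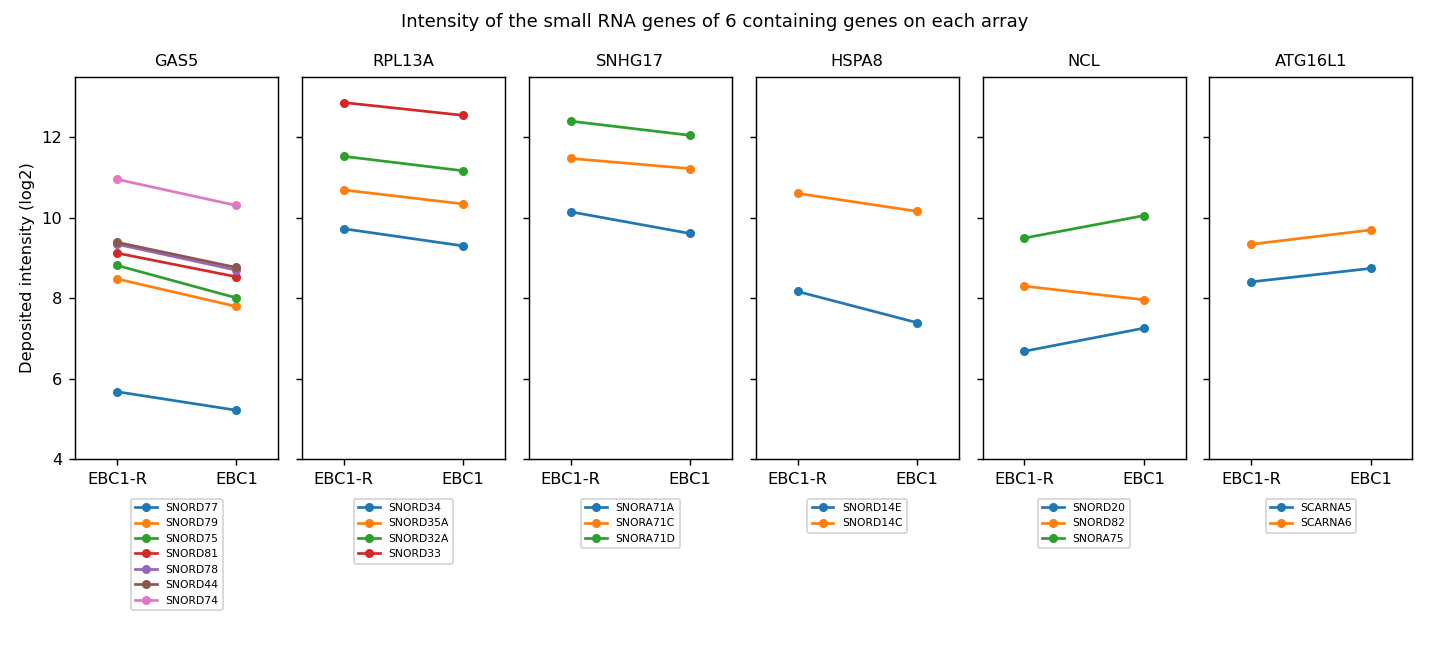
Deposited log2 intensity (vertical axis) of the members of 6 containing genes on the EBC1-R array (left) and the EBC1 array (right), each line 1 member. All members in GAS5, RPL13A, SNHG17 and HSPA8 slope down to the right, those in ATG16L1 slope up, and in NCL SNORD82 runs against SNORA75 and SNORD20.

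Of the 33 members inside ribosomal protein genes 28 were higher, and the differences ran from -0.19 to 0.57. None reached 1.5-fold, a size passed by 7.57% of all genes. RPL13A holds SNORD32A, SNORD33, SNORD34 and SNORD35A, of which all but SNORD34 were found in hamster and mouse cells to act in lipotoxic stress. SNORD34 had 9.73 in EBC1-R and 9.30 in EBC1, and SNORD33 had 12.87 in EBC1-R and 12.55 in EBC1. SNORD32A had 11.53 in EBC1-R and 11.17 in EBC1, and SNORD35A had 10.69 in EBC1-R and 10.34 in EBC1. All 4 were higher, by 0.32 to 0.43. The 3 members in RPL23A were higher by 0.17 to 0.35, beside 0.15 for RPL23A. Among the largest of this group were SNORA6 in RPSA and SNORA52 in RPLP2, both higher by 0.55, and SNORA33 in RPS12, higher by 0.52. The 4 lower members were SNORD55, SNORD83B, SNORD15A and SNORA62, at -0.07 to -0.19, each in a gene whose other measured members included 1 or more that were higher. The ribosomal protein genes themselves had a median difference of 0.21, with 50 of 56 higher in EBC1-R and 4 higher by 1.5-fold.

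Members that share a containing gene went the same way at some loci and were divided at others. Of the 9 containing genes with at least 3 members outside the imprinted repeats, 6 had all members on the same side of 0. At each of these the members were higher, as were 100 of all 146 members outside the repeats. Among containing genes with 2 members, ATP5F1B, KANSL2, RACK1, RPS3, RPSA and SNHG1 each had 1 higher and 1 lower, and the others were not divided. SNHG17, a non-coding gene, holds 3 related H/ACA box genes: SNORA71A had 10.15 in EBC1-R and 9.61 in EBC1, SNORA71D had 12.40 in EBC1-R and 12.05 in EBC1, and SNORA71C had 11.48 in EBC1-R and 11.22 in EBC1. SNHG17 itself ran the other way, with 8.79 in EBC1-R and 9.11 in EBC1. The same split was seen at TBRG4, which encodes a mitochondrial RNA-binding protein: SNORA5A, SNORA5B and SNORA5C were higher by 0.07 to 0.36, and TBRG4 differed by -0.31. In RABGGTB, which encodes a subunit of an enzyme that adds lipid anchors to Rab GTPases, the 3 SNORD45 genes were higher by 0.14 to 0.24 and the gene by 0.16.

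NCL, which encodes the nucleolar protein nucleolin, was the locus whose members disagreed most among those with at least 3. SNORA75 (U23) had 9.50 in EBC1-R and 10.05 in EBC1, and SNORD20 had 6.68 in EBC1-R and 7.25 in EBC1. SNORD82 in the same gene had 8.30 in EBC1-R and 7.96 in EBC1, so its 0.34 stood against -0.56 and -0.57. NCL itself had 11.33 in EBC1-R and 11.46 in EBC1.

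The largest decreases came from scattered loci. SNORA70G, an H/ACA box gene inside RAP1B (a small GTPase), had 6.22 in EBC1-R and 6.95 in EBC1, or 1.66-fold lower, and RAP1B differed by -0.04. SNORA28 in EIF5, a translation initiation factor gene, had 6.57 in EBC1-R and 7.29 in EBC1, and EIF5 differed by 0.07. SNORD56B in SIPA1L1 had 6.16 in EBC1-R and 6.82 in EBC1, with SIPA1L1 also lower, by 0.42 on the log2 scale. These 3 lie below the median level of all genes on the mean of both arrays. The fourth member lower by 1.5-fold, SNORA67 in EIF4A1 (an RNA helicase of translation initiation), lay above it, with 9.38 in EBC1-R and 10.02 in EBC1. Just short of that size were SNORD20 and SNORA75 at NCL and SNORD53 in WDR43, with 8.19 in EBC1-R and 8.73 in EBC1, beside -0.26 for WDR43, a gene of the small subunit processome. SNORD96A in RACK1 and SNORD96B in AMMECR1 both differed by -0.37. By their symbols these are copies of each other, and SNORA70G and SNORD56B also belong to families of copies. The other SNORA70 genes among the members differed by between -0.26 (SNORA70E) and 0.11 (SNORA70F). The part of binding across copies in these decreases was not tested.

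Among the Cajal body genes, the extremes followed the direction of the genes around them. SCARNA5 had 8.41 in EBC1-R and 8.74 in EBC1 and SCARNA6 had 9.34 in EBC1-R and 9.70 in EBC1. Both lie in ATG16L1, an autophagy gene, which had 9.13 in EBC1-R and 9.86 in EBC1. SCARNA8 had 6.92 in EBC1-R and 6.40 in EBC1, and its containing gene HAUS6, a subunit of the augmin complex of the spindle, had 8.78 in EBC1-R and 8.02 in EBC1. SCARNA7 in KPNA4, a nuclear import receptor gene, ran against it, with 9.87 in EBC1-R and 9.54 in EBC1, while KPNA4 differed by -0.25. SCARNA12 in PHB2 had 11.82 in EBC1-R and 11.77 in EBC1, and SCARNA10 had 8.81 in EBC1-R and 8.88 in EBC1. The remaining 10 genes of the class differed by between -0.23 and 0.20.

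Across loci the members followed their containing genes only loosely. Exactly 1 containing gene was measured for 97 members outside the imprinted repeats, in 75 genes. With members averaged per containing gene, Pearson's r was 0.32 and Spearman's rho 0.30 over the 75 genes, given as a description since all points share the same pair of arrays. Per member, r was 0.27 and rho 0.22, and 61 of the 97 had the sign of their containing gene. The median difference was 0.11 for these members and 0.01 for the genes around them. At SNORA70F the 2 values lay far apart: COBLL1 around it was higher in EBC1-R by 1.15, and SNORA70F had 5.27 in EBC1-R and 5.16 in EBC1. Its mean level of 5.22 exceeded that of only 10.8% of all genes. Whether SNORA70F was detected at all is not known, so its small difference may not show how its RNA behaved.

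**Figure D4:**
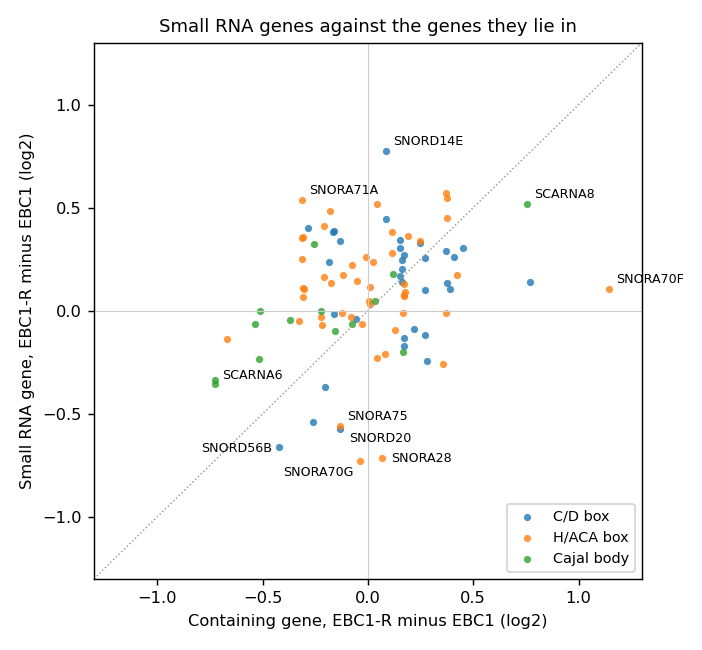
Difference between EBC1-R and EBC1 (log2) of each of 97 members (vertical axis) against that of the gene it lies in (horizontal axis), coloured by class, with the line of equal differences dotted. Points scatter widely around the line, with SCARNA6 low on both axes, SCARNA8 high on both, and SNORD14E, SNORA71A, SNORA28 and SNORA70G far from it.

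Ribosomal protein genes and many snoRNA-containing genes belong to a class that starts transcription at a C followed by a run of pyrimidines, the 5' terminal oligopyrimidine motif, which ties their translation to growth signalling. After the differences had been seen, the RefSeq start sites (GRCh38.p14) were searched on the gene's strand for a C at the first transcribed base followed by at least 4 bases that are C or T. Of 103 containing genes outside the imprinted repeats, 85 had a listed start: 12 of 19 ribosomal protein genes, 15 of 18 other non-coding genes, 57 of 65 other protein-coding genes, and GAS5. Some genes have several listed starts, and a gene was counted if the run stood at any of them. It did so in 10 of the 12, 5 of the 15 and 13 of the 57, against 5.14% of all 27305 genes with a listed start. Counted by start, the run stood at 13 of the 79 starts of other protein-coding genes (16.5%), against 4.07% of all listed starts. The 28 loci with the run had a median of locus means of 0.17, with 23 of 28 above 0, and the 57 without it had a median of 0.07, with 31 of 57 above 0. Those 57 include GAS5 and the ribosomal protein genes RPL3 and RPL17, since only listed starts were read. With GAS5 left out, the 56 loci without the run had a median of 0.05, with 30 above 0. Among other protein-coding genes alone the medians were 0.11 over 13 loci with the run and -0.01 over 44 loci without it. The following stretches of 60 bases, 40 before the listed start and 20 from it, belong to the containing genes of the largest increases, of the RPL13A cluster and of the divided NCL locus, with the run in capitals where it was found.
SNHG19, chr16:2155339-2155398, minus strand: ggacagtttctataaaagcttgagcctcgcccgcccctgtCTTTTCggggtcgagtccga
RPL13A, chr19:49487568-49487627, plus strand: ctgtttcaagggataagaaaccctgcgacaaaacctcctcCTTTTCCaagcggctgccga
GAS5, chr1:173869026-173869085, minus strand: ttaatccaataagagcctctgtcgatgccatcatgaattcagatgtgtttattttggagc
HSPA8, chr11:123062117-123062176, minus strand: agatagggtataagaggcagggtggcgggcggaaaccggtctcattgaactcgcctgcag
NCL, chr2:231464465-231464524, minus strand: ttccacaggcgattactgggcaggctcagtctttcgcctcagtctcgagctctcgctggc
The run is 6 bases long at SNHG19 and 7 at RPL13A. At GAS5, HSPA8 and NCL these letters do not stand at the listed start, which says nothing of other starts these genes may use.

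The 5 members with the highest mean intensities in each class were also taken, by signal and not by RNA amount. All 5 of the C/D box class (SNORD33, SNORD57, SNORD116-15, SNORD13 and SNORD13P3) were higher in EBC1-R, by 0.04 to 0.48, and so were all 5 of the H/ACA box class (SNORA71D, SNORA23, SNORA3A, SNORA22 and SNORA71C), by 0.25 to 0.38. Of the 5 Cajal body genes, SCARNA12 and SCARNA7 were higher, and SCARNA6, SCARNA10 and SCARNA5 were lower, over a range of -0.36 to 0.33. The C/D box gene SNORD57, in the gene of the C/D core protein NOP56, had 12.43 in EBC1-R and 12.18 in EBC1. Among the H/ACA box genes, SNORA23 in IPO7 had 12.31 in EBC1-R and 11.98 in EBC1, SNORA3A in RPL27A had 12.02 in EBC1-R and 11.64 in EBC1, and SNORA22 had 11.56 in EBC1-R and 11.29 in EBC1.

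The imprinted repeats held 46 of the C/D box genes and moved little. SNORD116, the cluster whose loss on the paternal chromosome 15 is tied to Prader-Willi syndrome, was represented by 20 genes, with a median difference of 0.03 and a range of -0.23 to 0.36. Its mean levels ran from 4.56 to 12.06, and 8 of the 20 reached the median level of all genes. SNORD116-15 had 12.09 in EBC1-R and 12.04 in EBC1. SNORD115, the neighbouring cluster known from brain and able to pair with the serotonin receptor 2C transcript, had 20 genes at mean levels of 4.25 to 4.62, the bottom of the scale on both arrays, and a median difference of 0.02. The 6 genes of SNORD113 and SNORD114, from the imprinted cluster of chromosome 14, had mean levels of 4.32 to 5.11 and a median difference of -0.04. Copies within a cluster are related, so their probe sets may read some of the same RNAs and may not be separate measurements. Binding across copies was not tested.

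**Figure D5:**
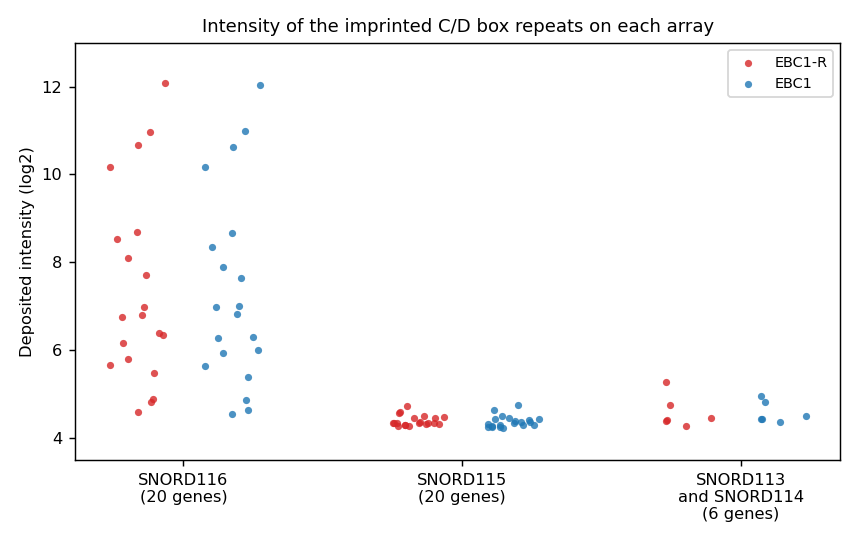
Deposited log2 intensity (vertical axis) of the SNORD116 genes, the SNORD115 genes, and the SNORD113 and SNORD114 genes together on the EBC1-R array (red, left of each pair) and the EBC1 array (blue, right). SNORD116 genes have mean levels of 4.56 to 12.06 and SNORD115 genes of 4.25 to 4.62.

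The snoRNAs listed for ribosomal RNA processing, some of them needed to cut its precursor, did not all go the same way. The 3 of 15 listed that were measured as members were all higher: SNORD13 (U13), which acts on the small subunit RNA and has its own promoter, had 12.27 in EBC1-R and 11.79 in EBC1, and SNORD14C and SNORD14E are given above. SNORD13P3, listed by RefSeq as a pseudogene of it, had 12.23 in EBC1-R and 11.83 in EBC1, and the part of binding across copies in this value was not tested. U3, which is required for the first cuts and is transcribed from its own genes, could be read only from 5 probe sets that name all its SNORD3 copies, outside the member rule. They had 8.39 to 8.40 in EBC1-R and 9.20 in EBC1, or 1.76-fold lower at the median. The 5 share their targets and count as 1 measurement. SNORA73A (U17), read only with its host SNHG3, had 11.62 in EBC1-R and 11.02 in EBC1, or 1.51-fold higher, and SNORD22, read only with SNHG1, differed by -0.04. Of all 76 probe sets that name a snoRNA or scaRNA gene together with other genes, 53 were higher and 21 lower, with a median of 0.10. Among all genes 43.3% were higher by any amount. None of the 76 differed by 2-fold, a size passed by 2.14% of all genes. Several of the 76 name the same genes with nearly equal values, so they are not all separate measurements. The 6 that name TAF1D with a snoRNA had a median of 0.47, and the 6 that name SNHG1 with a snoRNA had 0.08.

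Several members serve as reference RNAs in quantitative PCR of small RNAs, and their differences ran in both directions. Of 11 such snoRNAs listed, 6 were measured as members. SNORD44 was higher in EBC1-R by 0.63, SNORD38B by 0.46, SNORD95 by 0.29 and SNORD49A by 0.26. SNORD61 differed by -0.04 and SNORD96A by -0.37. Outside the member rule, probe sets that also name the gene around them were all higher, by 0.76 for SNORD47 with GAS5, 0.48 for SNORD24 with RPL7A, 0.47 for SNORD68 with RPL13 and 0.23 for SNORD72 with RPL37. SNORA80E, formerly SNORA42 and studied in lung cancer, had 7.53 in EBC1-R and 7.54 in EBC1.

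The protein partners of these RNAs differed little, and no gene of the lists reached 1.5-fold. Of the C/D core proteins 2 of 4 were measured: the methyltransferase FBL was higher by 0.29 and its scaffold NOP58 differed by -0.20. The 4 H/ACA core proteins had a median of -0.10, with the pseudouridine synthase DKC1 at -0.19. The 10 assembly factors had a median of 0.10, with 6 higher. NOPCHAP1, a chaperone of NOP58, was higher by 0.50, and RUVBL1, an ATPase of the R2TP assembly complex, differed by -0.34. The 8 Cajal body factors had a median of 0.20, with 6 higher. USPL1 was higher by 0.49 and the scaffold COIL by 0.26, while WRAP53, which brings scaRNAs to Cajal bodies, differed by -0.15.

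The machinery that processes and uses the RNAs was likewise close to level. The 11 processing and decay factors had a median of 0.07, with 7 higher and the exonucleases XRN1 and XRN2 at 0.34 and 0.30. The 26 genes of ribosome biogenesis had a median of -0.03, with 12 higher and 14 lower. The largest difference among them was that of BOP1, at -0.52. UTP20, a component of the U3 processome, was higher by 0.48, and RRP9, a protein of the U3 particle, differed by -0.47. The 4 measured host transcripts were SNHG29 at 0.41, ZFAS1 at 0.22, MEG3 at -0.12 and SNHG17 at -0.32. The median difference was 0.09 over the snoRNA and scaRNA genes and -0.03 over all genes. Beside these, 173 microRNA genes had a median of -0.07, and 20 of them reached the median level of all genes. Another 32 small RNA genes, such as spliceosomal, vault and 7SL-related RNAs, had a median of -0.02, with 14 higher and 18 lower.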

How the data were processed

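Trizol extracts of frozen cells were used and 100 ng of total RNA was made into biotinylated cDNA with a whole-transcript kit, per the labels' protocols. The extraction text names another array than the one whose annotation matches the probe set identifiers. The authors deposited 1 value per probe set, taken as log2 intensities from their range of 4.21 to 14.22. No source used here names the background correction, summarization or normalization. The deposited columns have nearly equal distributions, so a change shared by most genes would be removed.

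Of 28869 probe sets, 19310 named 1 gene. All 192 members matched the RefSeq gene table (GRCh38.p14), which gave the containing genes, lengths and biotypes. No snoRNA sequence was used here.

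No test was possible with 1 array per group. Genes were named by lists and by size: the largest 10 increases and decreases, the 5 highest intensities of each class and their containing genes. The others, among them loci with several members, were chosen after values were seen. The members and lists were chosen with earlier results of these data known. Alternatives were other scalings, a pseudocount of 16, level filters, thresholds and handling of copies. The count over 1 list of members is not reported here. The calculations were tested on simulated data. Python 3.11.15, pandas 2.3.3 and numpy 2.4.6 were used, with statsmodels 0.14.6 for lowess (span 0.2).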

Additional observations from a re-analysis of the deposited data

How the results depend on the processing

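No paired analysis was possible because each group holds 1 array. Of 681 values recomputed under the alternatives, 659 moved by less than the pooled SD of 0.15 between probe sets of a gene (counts by less than 1.5 times). That SD exceeds the class medians, so it is a lenient yardstick and no replicate error. Many of the values could not move. A member with 1 probe set keeps its value when only the brightest probe set of a gene is used. Any member left by a level filter keeps its value too, and a count of 0 at 2-fold must be 0 at 3-fold. The count of 659 therefore overstates how stable the results are. The C/D box median of 0.08 became 0.27 with the filter on the mean level (50 genes), 0.27 with the filter on the higher value (49 genes) and 0.25 without the imprinted repeats (69 genes). The median over all members was 0.24 with the filter on the higher value. The median of the host transcripts was 0.22 under both filters, over 3 genes. The correlation with containing genes was r = 0.47 over 39 genes under both filters. At 1.5-fold in place of 2-fold the counts were 8 higher and 4 lower over all members, 8 and 1 in the C/D box class, and 0 and 3 in the H/ACA box class. Of the members lower by 1.5-fold, 1 was left under both level filters (1 H/ACA box gene, 0 C/D box genes) and 3 with a pseudocount of 16 (0 C/D box genes). Centring gave 11 higher by 1.5-fold, 10 C/D box and 1 H/ACA box. At 3-fold all counts stayed at 0. Without the GAS5 members, an alternative chosen after seeing the data, 2 of 185 members were higher by 1.5-fold in place of 8, and the C/D box median was 0.07. The Cajal body median of -0.02 was 0.01 after centring on all genes. Of 60 members recomputed singly, which include every member named, SNORD61 and SNORA80E changed sign, both from differences of at most 0.04 in size. The alternative on class by symbol was run by leaving out RefSeq pseudogenes, since the table gives biotypes only. No detection calls were used, so values near the bottom of the scale have no known distance from background.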
